A study of Homo sapiens with 6 samples.

Results

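TGFBI, POSTN, TNC, TNXB, THBS1, THBS2, THBS3 and COMP are 8 of the 27830 genes in a count table of LX-2 cells, an established line of human hepatic stellate cells. They encode fasciclin-domain proteins (TGFBI, POSTN), tenascins (TNC, TNXB) and thrombospondins (THBS1, THBS2, THBS3, COMP). They were picked by name, and were chosen on measured values too, because the counts of the same 2 groups compared here were known when the set was drawn up. Their differences between the groups are therefore given as a description, with no p-value. The study asked which RNAs differ once stellate cells are activated. One group of 3 samples received 10 ng/ml of transforming growth factor beta 1 (TGF-β1) for 24 h, in medium without serum per the labels, and the other group of 3 samples is labelled Control. Cells of both groups were of 1 line and had been grown with fetal bovine serum, and the labels do not give the control medium during the 24 h, so TGF-β1 and a change of serum cannot be told apart. Whether samples within a group came from separate cultures is not stated, so errors and p-values cover only the variation among these libraries, and that may be technical.

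Matricellular proteins are secreted into the extracellular matrix but do little to hold it together. They bind cell-surface receptors, collagens, fibronectin, proteases and growth factors, and so tune adhesion, migration and signalling. In the liver, hepatic stellate cells are the main source of scar matrix, and TGF-β is their best known activator. TGFBI takes its name from its induction by TGF-β, and thrombospondin-1 can release TGF-β from its latent complex.

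The promoters of the members with the highest levels are shown because TGF-β acts on many genes through SMAD proteins bound near the start site. All 8 genes matched the RefSeq promoter table (GRCh38.p14), whose sequences run from 250 bases before the start to 50 after it. Each stretch was searched on both strands for the SMAD element CAGAC, the palindromic SMAD element GTCTAGAC, the AP-1 element TGANTCA, the TEAD element GGAATG and the TATA box TATAAA. Capitals mark the matches, a match on the reverse strand appears as the reverse complement of the motif, and no match shown overlapped another. The coordinates are chr5:136028738-136029037 on the plus strand for TGFBI, chr9:115118108-115118407 on the minus strand for TNC, chr15:39580829-39581128 on the plus strand for THBS1 and chr6:169253797-169254096 on the minus strand for THBS2.
TGFBI: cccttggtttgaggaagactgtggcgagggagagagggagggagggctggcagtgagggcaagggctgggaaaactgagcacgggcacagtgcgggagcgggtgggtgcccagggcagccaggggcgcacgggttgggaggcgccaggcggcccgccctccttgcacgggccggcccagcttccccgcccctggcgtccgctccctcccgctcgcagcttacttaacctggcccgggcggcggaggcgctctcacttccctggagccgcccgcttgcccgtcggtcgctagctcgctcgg
TNC: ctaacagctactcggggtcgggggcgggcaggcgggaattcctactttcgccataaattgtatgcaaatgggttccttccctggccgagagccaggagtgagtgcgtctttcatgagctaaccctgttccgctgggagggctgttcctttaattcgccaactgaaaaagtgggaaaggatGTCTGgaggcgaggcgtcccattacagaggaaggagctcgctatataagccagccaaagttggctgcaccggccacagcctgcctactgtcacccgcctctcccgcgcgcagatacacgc
THBS1: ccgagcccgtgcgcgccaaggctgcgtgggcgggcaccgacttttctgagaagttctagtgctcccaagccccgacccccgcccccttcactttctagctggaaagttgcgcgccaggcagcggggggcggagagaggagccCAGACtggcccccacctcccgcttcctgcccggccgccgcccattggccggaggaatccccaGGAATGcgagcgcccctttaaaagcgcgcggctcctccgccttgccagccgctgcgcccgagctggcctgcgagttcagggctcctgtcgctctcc
THBS2: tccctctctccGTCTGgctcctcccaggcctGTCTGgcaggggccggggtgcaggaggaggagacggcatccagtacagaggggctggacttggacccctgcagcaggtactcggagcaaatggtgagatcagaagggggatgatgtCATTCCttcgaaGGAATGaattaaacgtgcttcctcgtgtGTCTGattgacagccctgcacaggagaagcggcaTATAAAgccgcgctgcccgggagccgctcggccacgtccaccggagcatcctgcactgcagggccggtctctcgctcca

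The TGFBI stretch, with 72.7% G and C, held none of the 5 motifs. TNC had 1 SMAD element, starting at position -70 from the start site, and THBS1 had 1 at -108 with a TEAD element at -46. THBS2 had 3 SMAD elements at -239, -219 and -63, a pair of TEAD elements at -103 and -91, and a TATA box at -29. Among 35116 promoters of the same length, 45.3% held CAGAC, 0.202% held GTCTAGAC, 7.71% held TGANTCA, 14.03% held GGAATG and 11.5% held TATAAA. Of the genes not shown, POSTN had a SMAD element at -77, an AP-1 element at -220 and TATA boxes at -182 and -29. TNXB had SMAD elements at -8 and -163 and a TEAD element at -56 over its listed promoters. COMP had a SMAD element at -201 and a TEAD element at -141, and THBS3 had no match. Any relation of these matches to the differences below was not tested. These are matches of letters in a 300-base window and say nothing about binding of a factor.

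Libraries held 13866957 to 17694675 counts, so the detection floor of 3 counts lay between 0.170 and 0.216 CPM. CPM is the read count per unit of library size, which was scaled by TMM for single genes and was the plain total count for this floor and for summed markers, and FPKM, the deposited unit that also divides by gene length, is used to compare genes. Libraries differed in how strongly counts depended on transcript GC content. Over 59 genes with at most 35% GC, the median log2 deviation from the mean of all libraries was 0.72, 0.32 and -0.18 in TGF-β1 replicates 1 to 3, against -0.15, -0.29 and -0.24 in control replicates 1 to 3. Values with that trend removed are given where they matter. Of 14 listed stellate markers, COL1A1, VIM, COL3A1, PDGFRB, HAND2 and NGFR had at least 98 counts in every library. ACTA2 had 65 to 86 counts with TGF-β1 against 70 to 92 in controls, and COL1A2 had 43 to 48 with TGF-β1 against 29 to 42 in controls. The other 6 were scarce, with 6 to 13 counts of RGS5, 6 to 12 of PDGFRA, 4 to 14 of LUM, 1 to 6 of DCN, 1 to 5 of DES and 0 to 2 of LRAT over the 6 libraries. The stellate markers were thus split between well counted and scarce genes, matrix genes being in both sets. The summed stellate markers ran from 2997 to 3440 CPM with TGF-β1 against 2852 to 2929 CPM in controls, mostly from COL1A1 and VIM. On total counts, COL1A1 had 1630 to 1969 CPM with TGF-β1 against 1266.5 to 1401 CPM in controls. VIM went the other way, with 1137 to 1327 CPM with TGF-β1 against 1332 to 1471 CPM in controls. Of the other markers named above, also on total counts, COL3A1 and COL1A2 were higher in every TGF-β1 library than in every control. NGFR and HAND2 were lower, HAND2 only narrowly, at 12.4 to 13.5 CPM with TGF-β1 against 13.6 to 16.0 CPM in controls. Over all tested genes, on TMM-scaled CPM, 7.93% lay above the controls in every TGF-β1 library and 9.12% lay below. The hepatocyte sum ran from 57.2 to 72.5 CPM with TGF-β1 against 50.3 to 54.1 CPM in controls over 4 markers, nearly all from SERPINA1 (371 to 540 counts over the 6 libraries) and CPS1 (339 to 735 counts), with APOA1 and CYP3A4 at 0 or 1 count. The leukocyte sum ran from 20.8 to 22.4 CPM with TGF-β1 against 25.2 to 31.5 CPM in controls over 6 markers, mostly from CD14 (150 to 301 counts) and ITGAX (148 to 231 counts), with MARCO at 0 or 1 count. The endothelial sum over 7 markers, 430 to 449 CPM with TGF-β1 against 440 to 452 CPM in controls, came mostly from TIE1 and FLT1. These went opposite ways. TIE1 had 267 to 311 CPM with TGF-β1 against 312 to 352 CPM in controls, and FLT1 had 127 to 178 CPM against 93.7 to 132 CPM. The epithelial sum over 6 markers, 498 to 672 CPM with TGF-β1 against 630 to 737 CPM in controls, came mostly from KRT8 and KRT18, with EPCAM at 0 or 1 count. The part of these markers in the differences below was not tested.

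The 8 genes together took 0.524%, 0.568% and 0.540% of all counts in TGF-β1 replicates 1 to 3, against 0.224%, 0.240% and 0.237% in control replicates 1 to 3. TGFBI and TNC supplied nearly all of these, 92.1% to 94.2% with TGF-β1 against 83.0% to 86.0% in controls. Of the 8, 6 passed the filter on low counts and were tested, and POSTN and COMP did not. With edgeR's quasi-likelihood test at an adjusted p under 0.05, 2 were called higher (TGFBI, TNC) and 0 lower. The background was 0.187% of 14463 tested genes called higher and 0.180% called lower. In TGFBI and TNC all 3 TGF-β1 libraries lay above all 3 controls, and in TNXB all 3 lay below, where the background was 7.93% of genes above and 9.12% below. These counts describe a set chosen on the same contrast, and nothing is read from them.

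**Figure D1:**
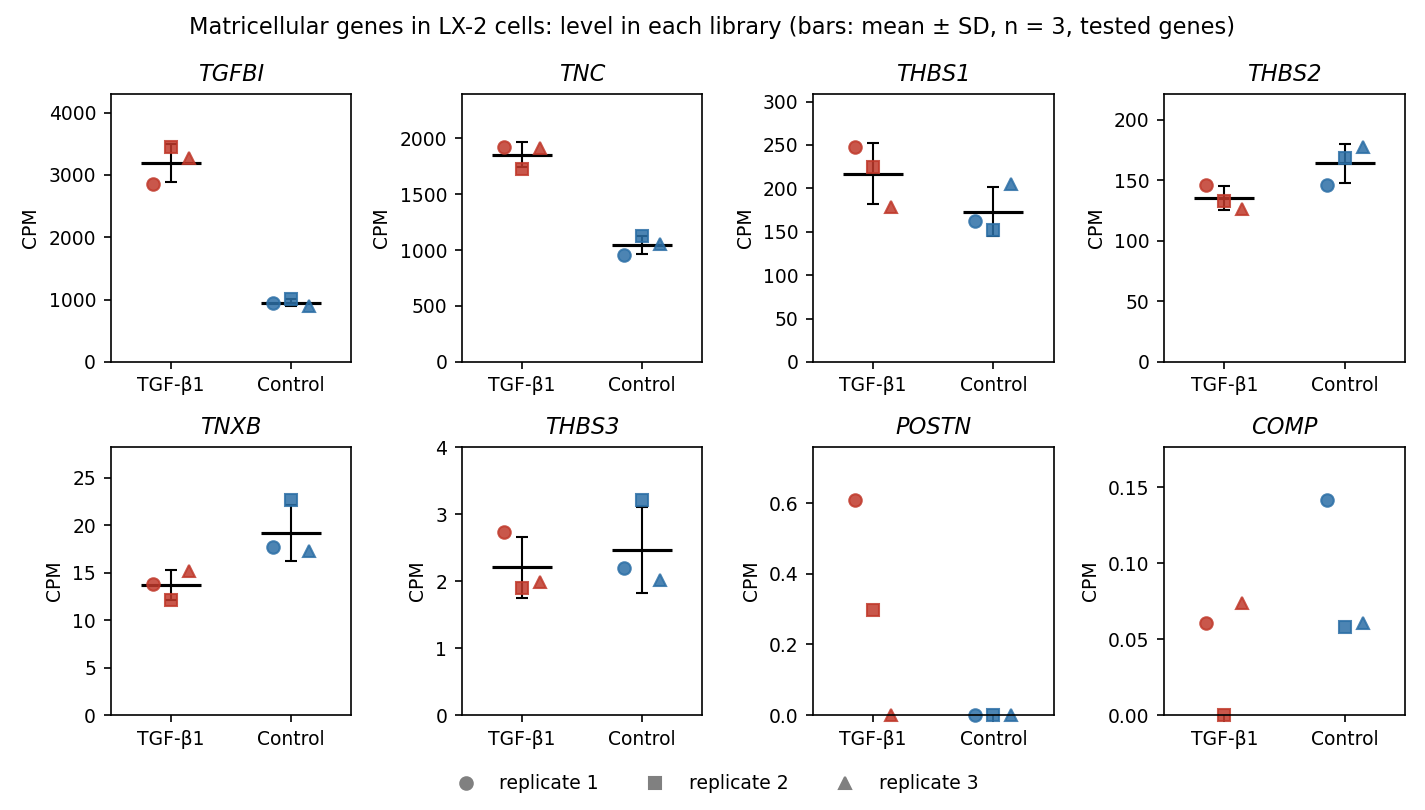
Level of each gene in CPM (y axes start at 0 and differ between panels) in the 3 TGF-β1 libraries (red, left) and the 3 control libraries (blue, right), with mean ± SD as bars for the 6 tested genes. The groups stand apart in TGFBI, TNC and TNXB, and POSTN has counts in 2 TGF-β1 libraries and in no control.

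TGFBI (ENSG00000120708, GRCh38 chr5:136028895-136063818, plus strand) encodes a secreted protein that binds collagens and integrins. Its counts were 46964, 58095 and 44503 in TGF-β1 replicates 1 to 3, against 13381, 17270 and 14829 in control replicates 1 to 3. On the CPM scale this gave 2852, 3445 and 3274 with TGF-β1, against 946, 1007 and 904 in controls. The lowest TGF-β1 library was far above the highest control, with means of 3190.5 ± 305 CPM with TGF-β1 and 952 ± 51.6 CPM in controls (SD, n = 3 each). This was a 3.35-fold higher level, or 1.74 ± 0.12 on the log2 scale (± SE; 95% interval 1.47 to 2.02). In bulk RNA, a change in the share of cells that express a gene and a change in RNA per cell cannot be told apart. Ranked by FPKM among all 27830 genes, TGFBI stood 43rd, 37th and 53rd in TGF-β1 replicates 1 to 3, against 273rd, 281st and 280th in control replicates 1 to 3. TGFBI was thus among the most abundant RNAs of the TGF-β1 libraries and clearly lower in rank in every control. It was called under all 24 alternative settings, at log2 differences of 1.69 to 1.87.

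POSTN (ENSG00000133110, chr13:37562583-37598844, minus strand) encodes periostin, the other fasciclin-domain protein, which binds integrins and promotes collagen cross-linking. It had 10, 5 and 0 counts in TGF-β1 replicates 1 to 3, against 0, 0 and 0 in control replicates 1 to 3. The group sum of 15 against 0 gave a 5.17-fold ratio when the control group was set at the floor of 3 counts. The 15 counts were taken as observed, so their error and the spread of 10, 5 and 0 are not covered. This ratio is thus no lower limit of the fold. It was 2.65-fold without TGF-β1 replicate 1, which held 10 of the 15 counts. Without control replicate 2 it was 3.27-fold, and without control replicate 3 it was 3.41-fold. These alternatives were added after the data were seen. The gene had more than 3 counts in 2 TGF-β1 libraries and none in the other libraries, and was not tested. It passed the threshold only in edgeR with the low-count filter dropped, where 1240 of 27830 genes were called, 1071 of them higher. DESeq2, run without that filter but with its own default filter on low mean counts, did not call POSTN. Whether its own filter removed POSTN was not checked. Its order over the TGF-β1 libraries was that of the low-GC deviation given above (0.72, 0.32 and -0.18), whose part in these counts was not tested. The gene closest to TGFBI in protein domains thus had at most 10 counts in a library while TGFBI was among the most abundant RNAs.

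TNC (ENSG00000041982, chr9:115019578-115118257, minus strand) encodes tenascin-C, a hexameric glycoprotein laid down in wounds and fibrotic tissue that binds integrins and fibronectin. Its counts were 31597, 29042 and 26014 in TGF-β1 replicates 1 to 3, against 13539, 19250 and 17355 in control replicates 1 to 3. The CPM values were 1919, 1722 and 1914 with TGF-β1, against 957, 1122 and 1058 in controls. All TGF-β1 libraries lay above all controls, with means of 1852 ± 112 CPM with TGF-β1 and 1046 ± 83.0 CPM in controls (SD, n = 3 each). This was a 1.77-fold higher level, or 0.82 ± 0.12 on the log2 scale (± SE; 95% interval 0.56 to 1.09). TNC lost its call without TGF-β1 replicate 2 (log2 difference 0.87), without control replicate 1 (0.76) and without control replicate 3 (0.82), and kept it in the other 21 of 24 alternatives. With the GC trend removed the difference was 0.93 ± 0.088, and it was called also with any 1 library left out. DEC1 on the opposite strand overlaps 1.34% of the exon bases of TNC, and the library kit does not mark strand.

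TNXB (ENSG00000168477, chr6:32041153-32115334, minus strand) encodes tenascin-X, which associates with collagen fibrils and gives connective tissue its strength. It had 228, 204 and 207 counts in TGF-β1 replicates 1 to 3, against 250, 388 and 283 in control replicates 1 to 3. The CPM values were 13.8, 12.1 and 15.2 with TGF-β1, against 17.7, 22.6 and 17.2 in controls. The groups did not overlap, yet the log2 difference of -0.48 ± 0.18 (95% interval -0.88 to -0.09) did not pass the threshold. With the GC trend removed it was -0.34 ± 0.13, the groups still stood apart, and over the alternatives it ran from -0.57 to -0.23 and was called in 0 of 24. TNXB has a near-identical partial copy, TNXA, so its counts are uncertain, and other genes share 2.51% of its exon bases. The 2 tenascins thus had estimates of opposite sign, only that of TNC being called, and their difference was not tested.

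THBS1 (ENSG00000137801, chr15:39581079-39599466, plus strand) encodes thrombospondin-1, a trimer that binds CD47 and CD36 and activates latent TGF-β. Its counts were 4075, 3795 and 2424 in TGF-β1 replicates 1 to 3, against 2303, 2603 and 3366 in control replicates 1 to 3. The CPM values were 247, 225 and 178 with TGF-β1, against 163, 152 and 205 in controls. TGF-β1 replicate 3 lay inside the control range, and the groups overlapped. The means were 217 ± 35.3 CPM with TGF-β1 and 173 ± 28.2 CPM in controls, with a log2 difference of 0.32 ± 0.16 (95% interval -0.02 to 0.67) that was not called. Removing the GC trend left 0.31 (0.06 to 0.56), also not called, and the gene was called in 1 of 24 alternatives, with the GC trend removed and TGF-β1 replicate 3 left out (0.42). FSIP1 and AC037198.2 on the opposite strand overlap 7.58% of its exon bases.

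THBS2 (ENSG00000186340, chr6:169215780-169254044, minus strand) encodes thrombospondin-2, a trimer like thrombospondin-1 that inhibits angiogenesis and helps clear matrix proteases. Its counts were 2406, 2246 and 1720 in TGF-β1 replicates 1 to 3, against 2065, 2894 and 2910 in control replicates 1 to 3. The CPM values were 146.12, 133 and 127 with TGF-β1, against 146.00, 169 and 177 in controls. The groups touched only where TGF-β1 replicate 1 slightly exceeded control replicate 1. The log2 difference was -0.28 ± 0.13 (95% interval -0.56 to 0.00094) and was called in 0 of 24 alternatives, which ran from -0.36 to -0.12.

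The trimeric thrombospondins differed between the groups in their ratio. The ratio of THBS1 to THBS2 in FPKM was 1.33, 1.33 and 1.11 in TGF-β1 replicates 1 to 3, against 0.876, 0.707 and 0.909 in control replicates 1 to 3. The ratio was higher in every TGF-β1 library than in every control, which does not depend on gene length, and at the deposited lengths it lay above 1 with TGF-β1 and below 1 in controls. The side of 1 does depend on length: with 6412 exon bases for THBS2 from GENCODE in place of the deposited 7197, an alternative added after the data were seen, the ratios were 1.19, 1.18 and 0.987 with TGF-β1, against 0.781, 0.630 and 0.810 in controls. With the GC trend removed the ratios were 1.20, 1.29 and 1.16 with TGF-β1, against 0.885, 0.778 and 0.894 in controls, again higher in every TGF-β1 library. The ratio of TGFBI to TNC in FPKM was 1.86, 2.50 and 2.14 with TGF-β1, against 1.23, 1.12 and 1.07 in controls, so TGFBI exceeded TNC in every library and by more with TGF-β1. Both ratios were formed after the values of the genes were seen and were not tested.

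**Figure D2:**
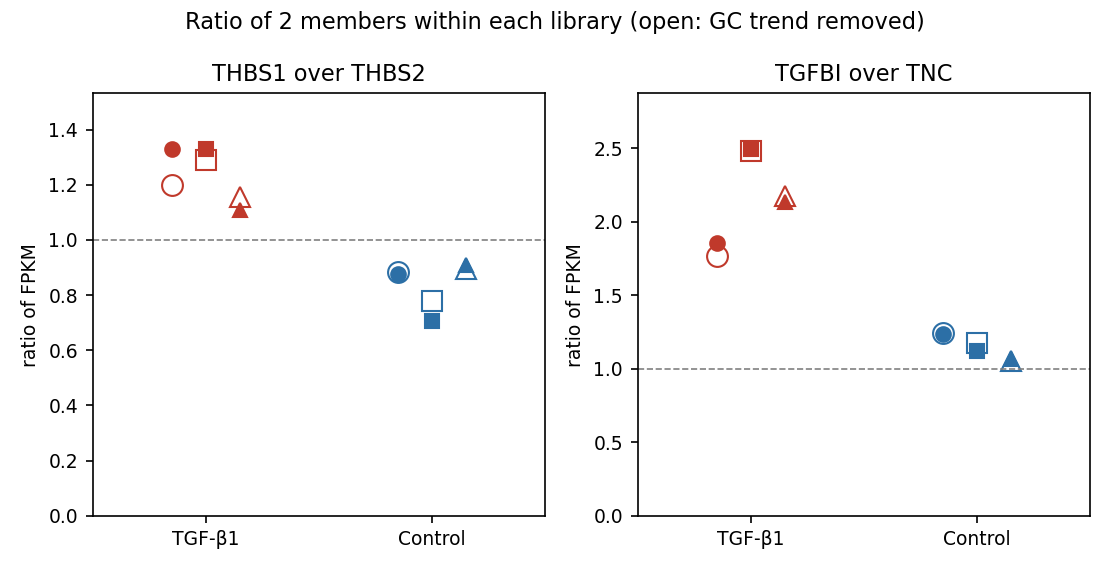
Ratio of deposited FPKM (y axis, from 0) of THBS1 to THBS2 (left panel) and of TGFBI to TNC (right panel) in each TGF-β1 library (red) and control library (blue), with circles, squares and triangles for replicates 1, 2 and 3, open symbols for values with the GC trend removed and a dashed line at 1. The ratio of THBS1 to THBS2 is higher in the 3 TGF-β1 libraries than in the 3 controls, and its side of 1 holds for the deposited gene lengths.

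THBS3 and COMP belong to the pentameric thrombospondins, of which COMP is the cartilage form. THBS3 (ENSG00000169231, chr1:155195588-155209051, minus strand) had 45, 32 and 27 counts in TGF-β1 replicates 1 to 3, against 31, 55 and 33 in control replicates 1 to 3. The log2 difference was -0.16 ± 0.29 (95% interval -0.79 to 0.46), the groups overlapped, and the sign changed in 4 of the alternatives. MTX1 and AC234582.1 on the opposite strand overlap 25.4% of the exon bases of THBS3. How the counting treated shared reads is not given, so some of these reads may be theirs or reads of THBS3 may be missing. COMP (ENSG00000105664, chr19:18782773-18791314, minus strand) had 1, 0 and 1 counts with TGF-β1, against 2, 1 and 1 in controls, below the floor in all libraries, and no fold is given. The pentameric members were therefore scarce in both groups, and no difference was detectable at this depth.

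**Figure D3:**
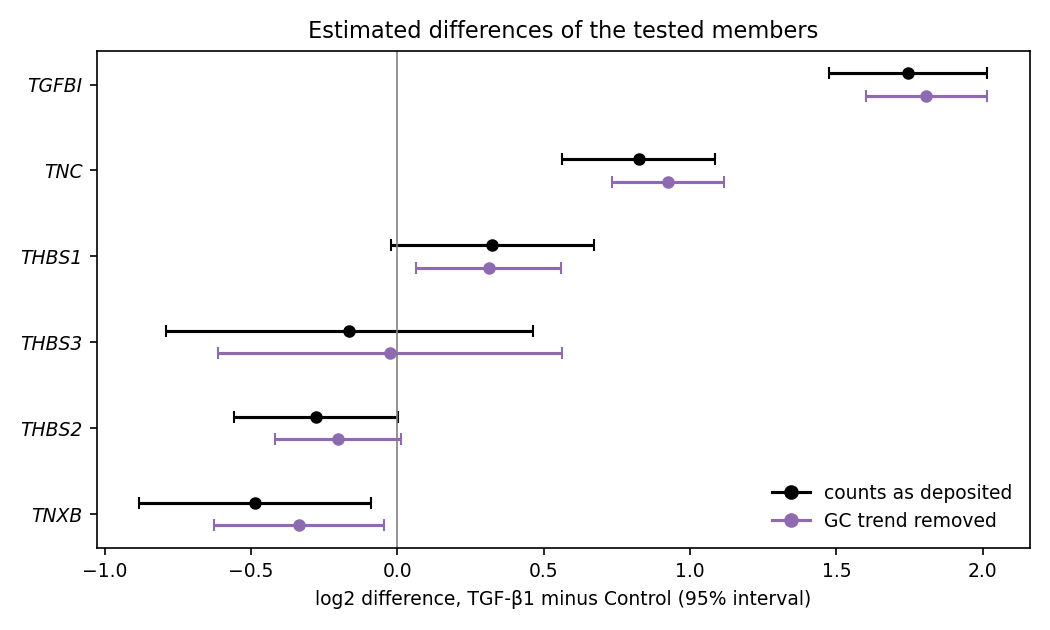
Log2 difference of TGF-β1 minus control (x axis) with its 95% interval for the 6 tested genes, for the counts as deposited (black) and with the GC trend removed (purple). The intervals of TGFBI and TNC lie above 0, that of TNXB lies below 0 without passing the threshold over all genes, and those of THBS2 and THBS3 include 0, as does that of THBS1 for the counts as deposited.

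Per length, the 8 genes spanned several orders of magnitude, and their FPKM order was the same in both groups except within the pairs THBS1 and THBS2, and POSTN and COMP. With TGF-β1 it ran TGFBI (416 ± 41.9 FPKM), TNC (193 ± 9.21), THBS1 (23.9 ± 4.28), THBS2 (18.9 ± 1.65), TNXB (0.866 ± 0.080), THBS3 (0.480 ± 0.102), then POSTN and COMP. In controls it ran TGFBI (122 ± 4.44 FPKM), TNC (108 ± 7.08), THBS2 (22.6 ± 2.22), THBS1 (18.8 ± 3.33), TNXB (1.19 ± 0.161), THBS3 (0.528 ± 0.126), then COMP, with POSTN at 0. THBS1 and THBS2 overlapped in range across the libraries of each group, and their order, although the same in the 3 libraries of a group, depends on the gene lengths as given above. TGFBI and TNC were close in controls, 118 to 126 FPKM and 99.5 to 113 FPKM, but their ranges did not overlap.

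**Figure D4:**
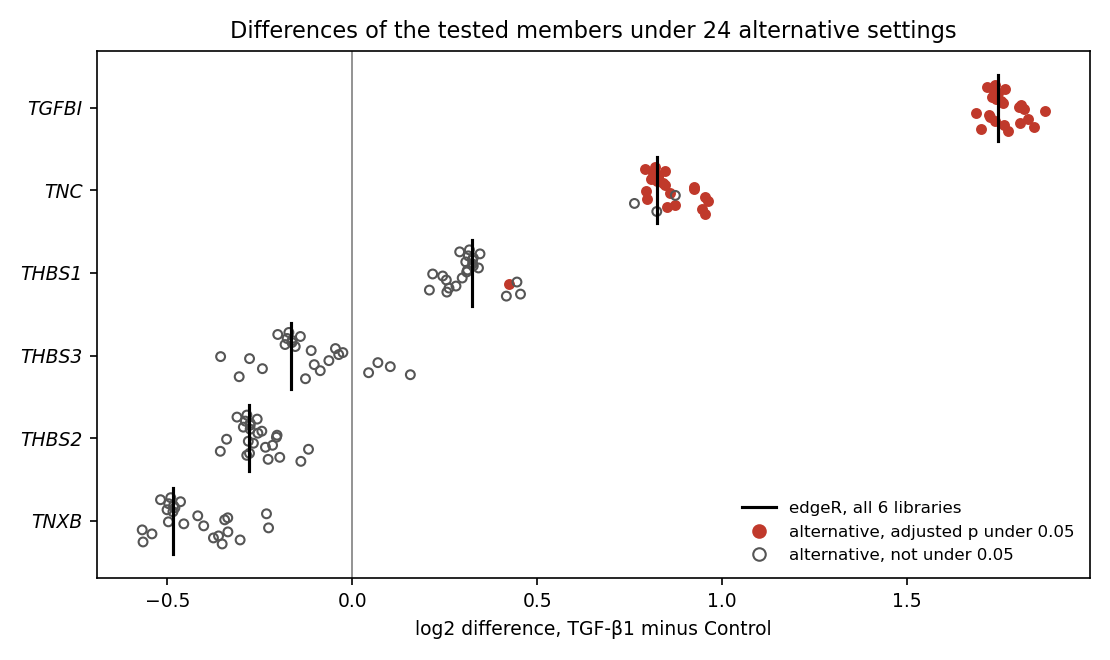
Log2 difference of TGF-β1 minus control (x axis) of the 6 tested genes under each of 24 alternative settings (points, filled where the adjusted p was under 0.05) with the value from all 6 libraries as a black line. TGFBI is called in 24 settings, TNC in 21, THBS1 in 1 and the other genes in none, and the points of THBS3 lie on both sides of 0.

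Genes whose log2 CPM profile over the 6 libraries lay nearest to that of a called member were found among genes with a mean of at least 5 CPM, by root mean square (RMS) difference after centring. Nearest to TGFBI were TAGLN, the actin-binding transgelin (RMS 0.103), FN1, fibronectin (0.159), and LRRC15, a membrane protein of fibroblasts (0.181). TAGLN had 243, 340 and 329 CPM with TGF-β1, against 93.7, 102 and 97.5 CPM in controls, and like TGFBI it was lowest in replicate 1 of the TGF-β1 libraries. Nearest to TNC were COL3A1, a fibrillar collagen chain (0.110), NTM, a cell adhesion molecule of the immunoglobulin family (0.110), and PODXL, a sialomucin (0.127). NTM had 18.2, 18.3 and 17.4 CPM with TGF-β1, against 9.40, 9.21 and 9.69 CPM in controls. The 6 libraries fall into 2 groups, so nearness includes the size of the group difference itself.

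Companion genes were read from 5 lists of what the proteins bind, are cut by or resemble. Of 95 listed genes 77 were tested, 9 were called higher and 1 lower by edgeR, against the background of 0.187% and 0.180% of genes. Removal of the GC trend gave 16 called higher and 4 called lower, against a background of 1.58% and 1.60%. The lists were drawn up with results of this contrast known, so these counts, the list medians and the p-values below describe the genes and are no independent evidence about the lists. The count of 10 calls became 1 without TGF-β1 replicate 2, 4 without control replicate 1 and 4 without control replicate 3, and it was 21 without TGF-β1 replicate 1 and 24 without TGF-β1 replicate 3. FN1 alone kept its call without TGF-β1 replicate 2, and FN1, LTBP2, MMP2 and SPOCK1 kept theirs without control replicate 1 or control replicate 3. COL3A1, COL5A1 and FBLN5 lost theirs without control replicate 2. FBLN5 and PMEPA1 also lost their calls with total counts as library sizes and in limma on log2 FPKM, FBLN5 in limma voom too, and COL5A1 in limma on log2(FPKM + 1). CPM values of companion genes are means ± SD of 3 libraries a group, and log2 differences carry their SE.

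Among matrix partners and proteases, 5 of 22 tested genes were called higher and 1 lower, with a median log2 difference of 0.16 beside 0.0070 over all tested genes. FN1, the fibronectin to which tenascin-C binds, rose to 3558 ± 184 CPM with TGF-β1, against 985 ± 68.9 CPM in controls (log2 difference 1.85 ± 0.12, edgeR adjusted p = 5.11e-05). The fibrillar collagen chains COL3A1 (log2 difference 0.71 ± 0.12, edgeR adjusted p = 0.035) and COL5A1 (0.72 ± 0.13, edgeR adjusted p = 0.0418) also rose. The gelatinase MMP2, whose clearance thrombospondin-2 mediates, rose to 146 ± 14.1 CPM with TGF-β1, against 59.3 ± 9.37 CPM in controls (log2 difference 1.30 ± 0.15, edgeR adjusted p = 0.00309). The collagenases moved apart. MMP1 fell to 707 ± 73.5 CPM with TGF-β1, against 1285 ± 85.6 CPM in controls (log2 difference -0.86 ± 0.13, edgeR adjusted p = 0.0139), while MMP13 had 45, 40 and 21 counts with TGF-β1 against 5, 6 and 4 in controls (log2 difference 2.80 ± 0.40, edgeR adjusted p = 0.0126).

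Among other matricellular proteins, 2 of 17 tested genes were called higher and 0 lower, with a median log2 difference of -0.02. SPOCK1, the proteoglycan testican-1, rose to 159.8 ± 38.01 CPM with TGF-β1, against 51.7 ± 9.13 CPM in controls (log2 difference 1.63 ± 0.19, edgeR adjusted p = 0.00477). FBLN5, an elastic-fibre protein, rose to 17.0 ± 2.24 CPM with TGF-β1, against 8.52 ± 0.917 CPM in controls (log2 difference 0.996 ± 0.185, edgeR adjusted p = 0.0485). In the list of latent TGF-β and its feedback, 2 of 20 were called higher and 0 lower, with a median of 0.20. LTBP2, a latent TGF-β binding protein of microfibrils, rose to 59.6 ± 2.26 CPM with TGF-β1, against 23.4 ± 2.91 CPM in controls (log2 difference 1.35 ± 0.15, edgeR adjusted p = 0.00289). PMEPA1, an inhibitor of TGF-β signalling that TGF-β itself induces, rose to 49.1 ± 13.96 CPM with TGF-β1, against 20.3 ± 3.09 CPM in controls (log2 difference 1.27 ± 0.21, edgeR adjusted p = 0.0314).

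Of the cell surface receptors of these proteins, 17 were tested and 0 were called, with a median log2 difference of 0.02. On removal of the GC trend, 2 were called higher (ITGAV, CACNA2D1) and 1 lower (ANXA2). The receptors of highest level were ANXA2, the annexin that binds tenascin-C, at 2384 ± 218 CPM with TGF-β1 against 3539 ± 82.4 CPM in controls (log2 difference -0.57 ± 0.12, edgeR adjusted p = 0.0686), and the integrin subunit ITGA3 (-0.34 ± 0.13, edgeR adjusted p = 0.249). ANXA2 was called in 12 of 24 alternatives, among them the removal of the GC trend (-0.58 ± 0.097, edgeR adjusted p = 0.00676), and its adjusted p over them ran from 0.00221 to 0.366. ITGAV, the integrin alpha-v subunit shared by receptors for TGFBI, periostin and tenascin-C, was singled out after its values were seen, as was CACNA2D1, a receptor of thrombospondins. It had 3079, 2101 and 1026 counts in TGF-β1 replicates 1 to 3, against 736, 659 and 844 in control replicates 1 to 3. All TGF-β1 libraries were higher, but they ran in the order of the low-GC deviation, whose part was not tested. Its log2 difference was 1.45 ± 0.27 (edgeR adjusted p = 0.0542) and became 0.98 ± 0.12 (edgeR adjusted p = 0.00099) with the GC trend removed. The closest family relatives were scarce. THBS4, a pentameric thrombospondin, had 8, 7 and 9 counts with TGF-β1 against 15, 15 and 13 in controls (log2 difference -0.81 ± 0.40, edgeR adjusted p = 0.35), and STAB2, a fasciclin-domain receptor, had at most 3 counts in any library.

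**Figure D5:**
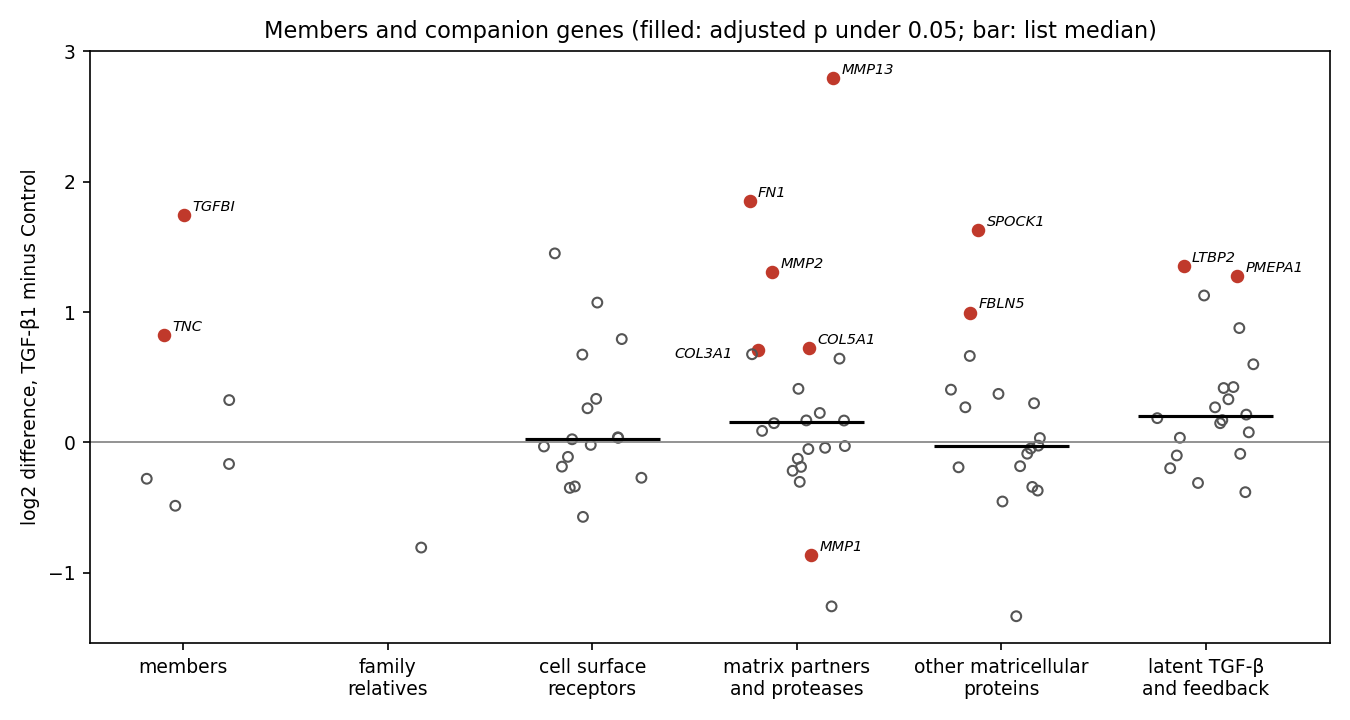
Log2 difference of TGF-β1 minus control (y axis) of each tested member and companion gene by list, filled and named where the adjusted p was under 0.05, with the median of each companion list of more than 1 tested gene as a bar. The called genes lie above 0 except MMP1, and 0 of 17 receptors are called.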

How the data were processed

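RNA of 3 TGF-β1 and 3 control samples of LX-2 cells was sequenced. Trizol extraction and the NEBNext Ultra RNA kit were used, per the labels' protocols, and this kit keeps no strand information. HISAT2, HTSeq 0.13.5 and GRCh38 are named, without role or order, in the submitters' processing notes. Per the file headers, the deposited table gives whole-number read counts and FPKM per gene and sample, with 6 columns of each. The deposited FPKM values imply 1 fixed length per gene in all libraries. Identifiers were matched to GENCODE release 29 (26980 of 27830 genes), which gave coordinates, transcript GC content and exon overlaps.

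Counts were tested in R 4.3.3 with edgeR 4.0.16 (TMM, filterByExpr, robust quasi-likelihood F test, no covariate), Benjamini-Hochberg adjusted over 14463 genes and called at an adjusted p under 0.05. The test was checked on simulated counts with known differences, drawn with the spread of each gene as estimated from these same libraries. The simulated counts held no GC trend. The check thus covers neither the GC trend of the libraries nor an error in that spread. Log2 CPM profiles used a prior count of 2. Alternatives were other scaling, no filter, a filter of 1 CPM in 3 libraries, a block on the replicate number, DESeq2 1.42.0, limma 3.58.1 (voom, and log2 of FPKM plus 1 or 0.1), removal of each library's trend on transcript GC content (loess, span 0.5), and each library left out in turn. Intervals are 95% intervals of the fit. Floors cover counting error only.

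The members and the lists were chosen with earlier results of these data known. The text names all 8 members, the called genes of each companion list (at most 6, or the 2 of highest level where fewer than 2 were called), the 3 nearest profiles of each called member and cell type markers. Motifs were searched in RefSeq promoters of GRCh38.p14.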

Additional observations from a re-analysis of the deposited data

How the results depend on the processing

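TGFBI kept its direction and call under all 24 alternatives, and TNC kept its direction in all and its call in 21. The count of called members, 2 with all libraries, ran from 1 to 2 with 1 library left out and from 2 to 3 with 1 left out and the GC trend removed. THBS3 changed sign to 0.0444 without control replicate 2 and, with the GC trend removed, to 0.0695 without TGF-β1 replicate 2, 0.103 without TGF-β1 replicate 3 and 0.157 without control replicate 2, which at 27 to 55 counts a library lies within its error; with 1 library left out it ran from -0.356 to 0.0444 on the counts as deposited. The count over all genes, 53, was 111 with upper quartile factors, 1240 with no filter, 590 with DESeq2 and 461 with the GC trend removed. It ran from 4 to 1671 when single libraries were dropped. Dropping TGF-β1 replicates 1, 2 and 3 after removal of the GC trend gave 367, 96 and 1284 calls, and dropping control replicates 1, 2 and 3 gave 113, 160 and 459. The count of companion genes, 10, was 24 with no filter, 21 with DESeq2 and 20 with the GC trend removed, and ran from 1 to 24 when single libraries were dropped. After removal of the GC trend it then ran from 13 to 28, being 18 when control replicate 2 was dropped and 20 for TGF-β1 replicate 1. The cause of these changes was not tested. Counts stayed within 1.5 times in 7 of 24 alternatives over all genes, 10 of 24 for companions and 21 of 24 for members.

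With the replicate number as a block, 527 genes, 2 members and 20 companions were called, and 311, 2 and 19 with the GC trend removed too. Same-numbered samples correlated at 0.176, 0.10 and -0.355 in their deviations from the group means. With the GC trend removed the correlations were -0.0041, 0.115 and -0.212. With 3 libraries a group these values cannot decide whether the numbers pair the samples, and the labels do not state it. Depth limits POSTN, COMP and THBS3. The ratio of POSTN to the control floor ran from 2.65 to 7.35 when single libraries were dropped.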
